A study of Homo sapiens with 2 samples.

Results

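BIX_01294, UNC0631, A366 and BRD4770 are small molecules known as inhibitors of the histone methyltransferases G9a and GLP. They were the treatments of 8 of the 192 wells in this screen and 4 of its 74 treatments, and they were taken by the compound name that the deposited annotation gives for each well. BIX_01294 and UNC0631 are quinazolines. K562, an established cell line from human chronic myeloid leukaemia that expresses erythroid genes, was cultured in 96-well plates with 1 compound per well for 6 h, and the polyadenylated RNA of each well was read by MAC-seq, in which every well receives a barcode and the mRNA 3′ ends of a whole plate are sequenced as 1 pool.

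G9a is the product of EHMT2 and GLP that of EHMT1. The 2 proteins form a heterodimer that places mono- and dimethyl marks on lysine 9 of histone H3 in euchromatin, where the marks go with low transcription, and the zinc finger proteins WIZ and ZNF644 bind the dimer and bring it to chromatin. In erythroid cells G9a has been tied to the silencing of embryonic and fetal globin genes, and in other cells to the silencing of germline genes, autophagy genes and genes of serine synthesis and lipid metabolism.

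Each of the 4 compounds had 1 well on each of the 2 plates, at the same well number and with the same barcode. The comparison wells were the 16 wells of EtOH (a solvent), Ofloxacin (an antibiotic), Pinometostat and SGC_0946 (DOT1L inhibitors), EPZ015666 and GSK591 (PRMT5 inhibitors), EED226 (an EED inhibitor) and GSK126 (an EZH2 inhibitor), called the reference below, and the 24 wells of the vehicle DMSO. All groups share the cell line and the 6 h exposure. The duplicates are technical, so p-values measure the spread between wells of 1 experiment, and the labels and annotation used here give no dose.

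The wells fell on the plates in a way that touches every result below. Reading the well numbers along rows of 12, BIX_01294 and A366 lay in plate column 3 and BRD4770 and UNC0631 in plate column 2, while every reference compound lay in columns 4 to 11. Human counts per well ranged from 392624 to 736615 (median 501561) for the 4 inhibitors and from 462597 to 1238536 (median 872989.5) for the reference. The median over all wells was 265248 in column 1, 489907.5 in column 2, 624715.5 in column 3 and 872989.5 in columns 4 to 12. ERCC spike-in RNA made up 13.97% to 20.05% of the counts in the inhibitor wells and 11.87% to 18.58% in the reference wells. In such bulk wells, fewer cells and less RNA per cell cannot be told apart. Another 11 compounds with all of their wells in columns 2 and 3 were therefore used as position-matched wells, a choice made after the data were seen: CPI_360, EI1 and CPI_169 (EZH2 inhibitors), MI-2 and MI-3 (menin inhibitors), GSK_J4_HCl, GSK_J1, ML324 and JIB_04 (histone demethylase inhibitors), and GSK_LSD1_2HCl and SP2509 (LSD1 inhibitors). Their 22 wells held 343156 to 883707 counts (median 586353). All 8 K562 markers looked up were detected in the inhibitor wells. Their summed level was 25661 to 29149 CPM (counts scaled to a library of 1e6) there, against 27360 to 29193 CPM in the reference wells. Summed levels are without TMM factors, and levels of single genes in a well are with them. Of 17 markers of other blood, fibroblast, epithelial and endothelial cells, 7 were at 0 in all 8 inhibitor wells (CD3E, CDH1, CDH5, DCN, KRT5, MS4A1 and VWF). Others were present in every inhibitor and reference well. CD3D was at 62.92 to 103.3 CPM in the inhibitor wells and 61.01 to 102.9 CPM in the reference wells. EPCAM was at 67.22 to 85.21 and 60.6 to 89.95 CPM, and LYZ at 2.097 to 12.72 and 2.727 to 19.47 CPM. The 17 markers summed to 154 to 208 CPM in the inhibitor wells and to 146 to 205 CPM in the reference wells.

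**Figure D1:**
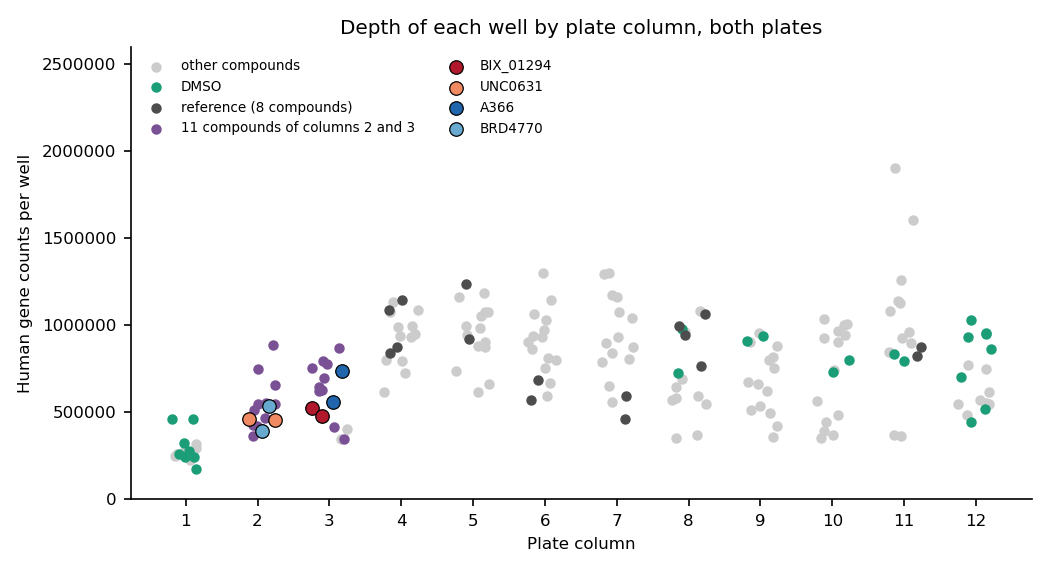
Human gene counts of each of the 192 wells (y axis) by plate column (x axis), with 1 point per well. The wells of BIX_01294, UNC0631, A366 and BRD4770 are outlined, and they lie in columns 2 and 3, where the median depth is below that of columns 4 to 12.

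The first comparison asked which transcripts differed between cells given any of the 4 inhibitors and cells given the reference compounds. Pooled over the 4 compounds, 1603 of 10312 genes tested, or 15.5%, passed an adjusted p of 0.05 in edgeR's quasi-likelihood test, 749 higher and 854 lower, with a median 95% half-width of 0.38 on the log2 scale. The higher genes included FBXL6, TRABD, SNHG19, TUBGCP6 and PCNT, and the lower ones MCM2, POLR2D and many processed pseudogenes such as ANXA2P2 and YBX1P1. Pseudogenes made up 14.8% of the tested genes with a known type, 5.07% of the higher genes and 35.5% of the lower genes. The 11 compounds of columns 2 and 3, tested against the same reference, gave 2230 genes (21.6%), 1044 higher (10.1%) and 1186 lower (11.5%), with 8.11% and 31.8% pseudogenes. When the 4 inhibitors were set against those 11 compounds directly, 0 of 10312 genes (0.0%) passed in edgeR, 565 had an unadjusted p under 0.05, the smallest adjusted p was 0.537 and the median half-width was 0.38. The balance of the 1603 genes moved with the scaling of the libraries, to 1078 higher and 579 lower with library size alone and to 239 higher and 962 lower with ERCC scaling. Leaving out plate 1 brought the pooled count against the reference from 1603 to 10 and leaving out plate 2 to 189, with each lone well taken to vary like the other groups. Plate column and compound cannot be told apart in the comparison with the reference.

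With only the 2 shallowest reference compounds as reference, also chosen after the data were seen, 370 genes (3.59%) passed in edgeR for the pooled inhibitors. The counts there were 58 (0.562%) for BIX_01294, 4 (0.0388%) for UNC0631, 43 (0.417%) for A366 and 7 (0.0679%) for BRD4770.

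**Figure D2:**
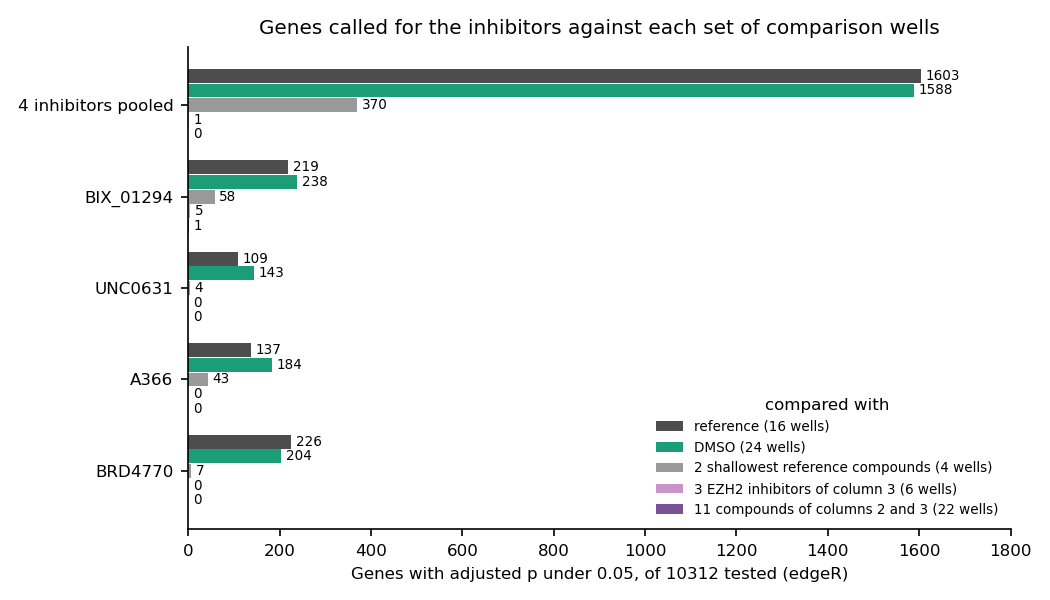
Number of genes with an edgeR adjusted p under 0.05 (x axis, of 10312 tested) for the 4 inhibitors pooled and for each of them (y axis), against the reference, DMSO, the 2 shallowest reference compounds, the 3 EZH2 inhibitors of column 3 and the 11 compounds of columns 2 and 3. The pooled count is 1603 against the reference and 0 against the compounds of columns 2 and 3.

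The vehicle gave a measure of position with no compound involved. DMSO filled 8 wells of column 1 and 16 wells of columns 8 to 12, with 173553 to 462611 and 446074 to 1030814 counts. The 8 first-column wells differed from the other 16 in 2474 genes (24.0%), 1180 higher (11.4%) and 1294 lower (12.5%). FBXL6, TRABD, SNHG19 and TUBGCP6 were among the higher genes and HBA1 and RPL39 among the lower ones, the directions seen in the inhibitor wells against the reference. Not every named gene followed. First-column and other DMSO medians were 18.6 and 18.4 CPM for MCM2 and 22.1 and 19.5 CPM for POLR2D, both lower with the inhibitors. No inhibitor lay in column 1, where the DMSO wells were shallower (median 266020 counts) than the inhibitor wells (median 501561). GSK503, an EZH2 inhibitor placed in both column 3 and column 11, differed between its 2 positions in 30 genes (0.291%), 15 in each direction. At an unadjusted p under 0.05, edgeR gave 1166 genes. The median 95% half-width was 0.92 for GSK503 and 0.44 for DMSO, so the 2 shares cannot be set side by side. Both comparisons were added after the data were seen.

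TRABD, which encodes a protein with a TraB domain, stood at 150.5 and 162.5 CPM with BIX_01294 on plates 1 and 2, at 174 and 172 CPM with UNC0631, at 102 and 132 CPM with A366 and at 125 and 189 CPM with BRD4770. The reference wells ran from 57.7 to 95.9 CPM (median 75.1), so no inhibitor well overlapped them. The wells of columns 2 and 3 ran from 83.2 to 187 CPM (median 122), and 7 of the 8 inhibitor wells lay inside that range. First-column DMSO wells held 144 to 219 CPM of TRABD (median 160) and other DMSO wells 46.0 to 89.4 CPM (median 76.4). TRABD rose by a log2 fold change of 0.93 ± 0.12 (SE; edgeR adjusted p = 7.26e-09) against the reference. Against the compounds of columns 2 and 3 the TRABD difference was 0.22 ± 0.12 (adjusted p = 0.885).

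SNHG19, a host gene of small nucleolar RNAs, showed the same layout. Its level was 368 and 387 CPM with BIX_01294, 401 and 298 CPM with UNC0631, 303 and 374 CPM with A366, and 349 and 343 CPM with BRD4770. All 8 lay above the reference range of 144.5 to 223 CPM and inside the 223 to 445.5 CPM of columns 2 and 3. SNHG19 was higher than in the reference by 0.93 ± 0.13 (adjusted p = 1.74e-08), and the first-column DMSO wells (341 to 584 CPM) lay above the other DMSO wells (119 to 236 CPM). Against columns 2 and 3 the SNHG19 difference was 0.22 ± 0.12 (adjusted p = 0.891).

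FBXL6, an F-box protein of ubiquitin ligases, had the largest rise among the genes named for the pooled comparison. It was at 21.8 and 56.2 CPM with BIX_01294, 50.3 and 31.9 CPM with UNC0631, 29.5 and 39.2 CPM with A366, and 38.1 and 42.0 CPM with BRD4770. The reference held 8.61 to 24.98 CPM (median 16.5), and only the BIX_01294 well of plate 1 fell inside that range. FBXL6 rose by 1.28 ± 0.19 (edgeR adjusted p = 2.94e-07) against the reference. The compounds of columns 2 and 3 (20.7 to 57.9 CPM) were higher than the reference by 1.07 ± 0.16, and the difference between the inhibitors and them was 0.21 ± 0.17 (adjusted p = 0.928).

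TUBGCP6 and PCNT encode parts of the centrosome, a subunit of the γ-tubulin ring complex and the scaffold pericentrin. TUBGCP6 ran from 39.97 to 64.2 CPM (median 50.2) in the inhibitor wells and from 12.4 to 38.9 CPM (median 23.7) in the reference, with no overlap, and rose by 1.08 ± 0.19 (edgeR adjusted p = 1.05e-05). PCNT ran from 18.2 to 35.0 CPM (median 27.2) against 5.46 to 20.8 CPM (median 12.6), with 1 inhibitor well inside the reference range, that of BRD4770 on plate 1, and rose by 1.08 ± 0.22 (adjusted p = 0.000156). Against columns 2 and 3 the differences were 0.23 ± 0.17 for TUBGCP6 and 0.54 ± 0.21 for PCNT (adjusted p = 0.756).

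VTRNA2-1, a short noncoding RNA made by RNA polymerase III, also separated the inhibitor wells from the reference. Its level was 50.8 and 56.2 CPM with BIX_01294, 73.4 and 57.4 CPM with UNC0631, 77.7 and 71.8 CPM with A366, and 70.8 and 79.4 CPM with BRD4770. All 8 wells lay above the reference (25.04 to 47.6 CPM) and inside the 28.97 to 108 CPM of columns 2 and 3, whose median was 44.2 CPM. VTRNA2-1 rose by 0.97 ± 0.15 (edgeR adjusted p = 3.77e-07) against the reference, and the difference from columns 2 and 3 was 0.49 ± 0.14 (adjusted p = 0.554). The other named higher genes were PGGHG, a glucosidase of hydroxylysine-linked sugars, PABPC1L, a poly(A)-binding protein, GTPBP2, a GTP-binding protein of ribosome rescue, and B4GALT2, a galactosyltransferase. Against the reference these rose by 1.02, 0.98, 0.94 and 0.93 on the log2 scale, and against columns 2 and 3 their differences were 0.33, 0.05, 0.30 and 0.33.

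Among the named lower genes, POLR2D, a subunit of RNA polymerase II, was the one that differed least between position-matched and reference wells. It was at 21.8 and 6.02 CPM with BIX_01294, 14.7 and 8.51 CPM with UNC0631, 17.4 and 9.80 CPM with A366, and 9.08 and 4.67 CPM with BRD4770. The reference wells held 15.0 to 28.1 CPM (median 23.5) and the wells of columns 2 and 3 held 8.52 to 38.5 CPM (median 18.8), so 2 of the 8 inhibitor wells lay inside the first range and 5 inside the second. POLR2D fell by 0.98 ± 0.23 (edgeR adjusted p = 0.000234) against the reference, while columns 2 and 3 differed from the reference by -0.18 ± 0.13 (adjusted p = 0.349). The POLR2D difference from columns 2 and 3 was -0.80 ± 0.23 (adjusted p = 0.537). In DMSO, POLR2D differed by -0.02 ± 0.22 between the first column and the other columns.

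MCM2, a subunit of the replicative helicase, ran from 1.81 to 20.1 CPM (median 13.7) in the inhibitor wells and from 14.3 to 32.3 CPM (median 22.2) in the reference, and fell by 0.84 ± 0.24 (edgeR adjusted p = 0.00334). The wells of columns 2 and 3 held 5.49 to 26.2 CPM of MCM2 (median 15.8) and overlapped the inhibitor wells. RBM22, a spliceosome protein, fell by 0.79 ± 0.26 (adjusted p = 0.0118) against the reference. Against columns 2 and 3 the RBM22 difference was -0.46 ± 0.27 (edgeR adjusted p = 0.897). Both genes rest on few counts, 1 to 11 per inhibitor well for MCM2 and 3 to 6 for RBM22. The other 7 named lower genes were processed pseudogenes: ANXA2P2, RPL21P84, ATP5PDP4, RPL3P9, RPSAP29, YBX1P1 and BANF1P3. YBX1P1 was at 39.7 to 114 CPM in the inhibitor wells against 90.2 to 170 CPM in the reference, a fall of 0.80 ± 0.13 (adjusted p = 7.9e-07), and it also fell by 1.08 ± 0.14 in first-column DMSO against other DMSO. Reads of such copies can be shared with their parent genes at the 3′ end, so their values are uncertain.

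**Figure D3:**
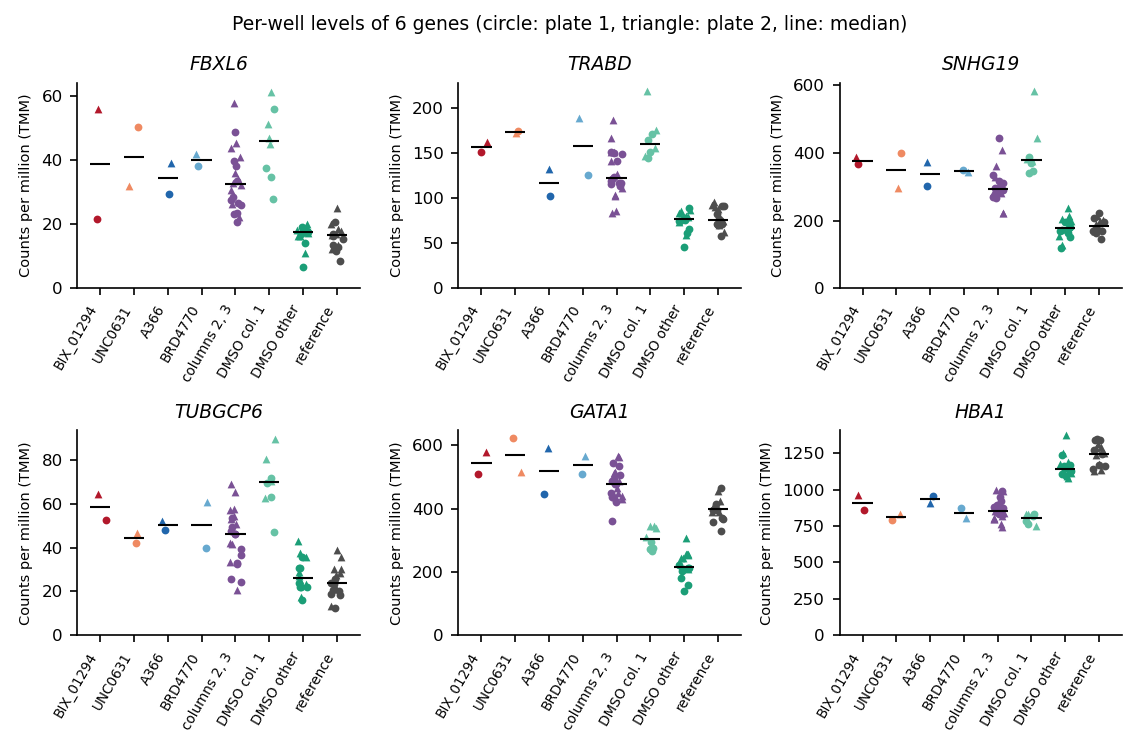
Level of FBXL6, TRABD, SNHG19, TUBGCP6, GATA1 and HBA1 in every well (y axis, TMM-scaled CPM) for the 4 inhibitors, the 11 compounds of columns 2 and 3, DMSO of the first column, other DMSO wells and the reference (x axis). Circles are plate 1, triangles plate 2 and lines medians. TRABD, SNHG19 and TUBGCP6 do not overlap between inhibitor and reference wells, and all 6 genes overlap between inhibitor wells and those of columns 2 and 3.

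**Figure D4:**
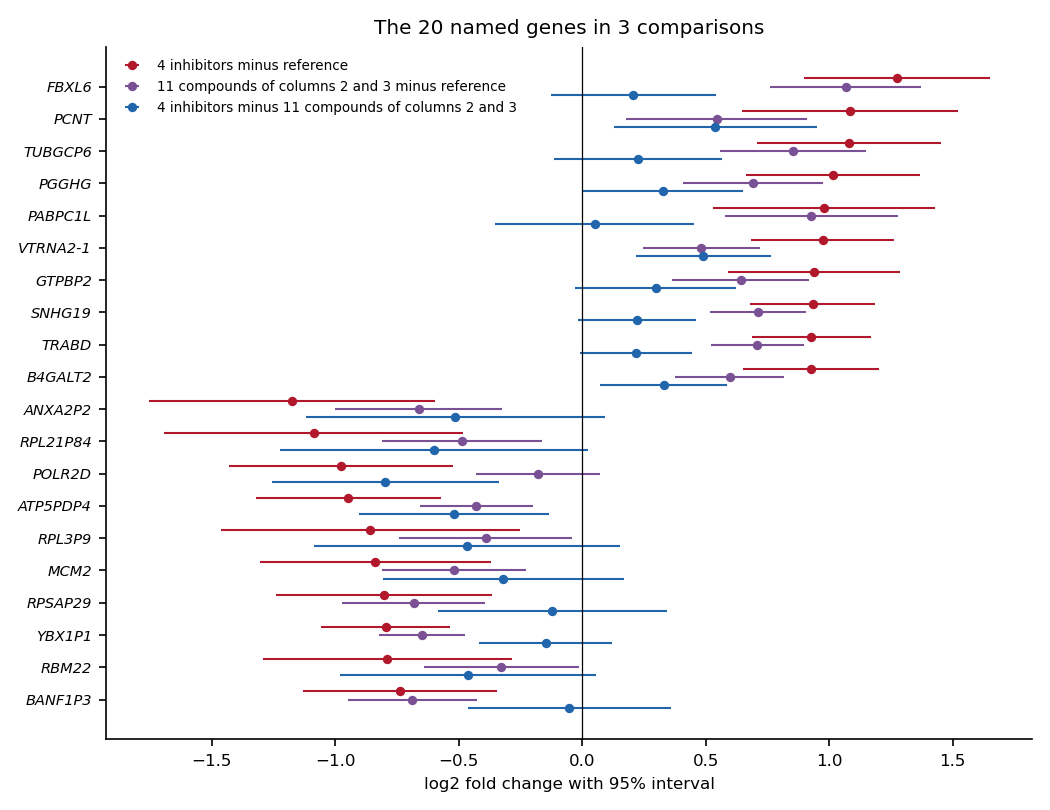
Log2 fold change with its 95% interval (x axis) of the 20 named genes (y axis) for the 4 inhibitors against the reference, for the 11 compounds of columns 2 and 3 against the reference, and for the inhibitors against those 11 compounds. FBXL6 has 1.28, 1.07 and 0.21, and POLR2D has -0.98, -0.18 and -0.80.

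The transcripts of the inhibited enzymes themselves did not pass the test. EHMT1, which encodes GLP, was at 14.5 and 16.1 CPM with BIX_01294, 12.6 and 10.6 CPM with UNC0631, 4.02 and 13.1 CPM with A366, and 12.7 and 11.7 CPM with BRD4770. The reference held 5.41 to 13.4 CPM of EHMT1 (median 9.98), overlapping every compound but BIX_01294. The pooled EHMT1 difference was 0.27 ± 0.25 against the reference (edgeR adjusted p = 0.534), 0.02 ± 0.24 against DMSO and 0.26 ± 0.26 against columns 2 and 3.

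EHMT2, which encodes G9a, was at 12.7 and 14.04 CPM with BIX_01294, 25.2 and 27.6 CPM with UNC0631, 13.4 and 16.3 CPM with A366, and 18.2 and 21.0 CPM with BRD4770. Both UNC0631 wells lay above the other 6 inhibitor wells, and the reference range of 7.33 to 26.7 CPM held 7 of the 8. The pooled EHMT2 difference was 0.15 ± 0.21 (edgeR adjusted p = 0.698) against the reference, and UNC0631 alone gave 0.70 ± 0.33 (adjusted p = 0.323). WIZ gave 0.34 ± 0.20 (adjusted p = 0.287) and ZNF644 0.58 ± 0.25 (adjusted p = 0.102). None of the 6 genes listed for the G9a and GLP complex passed, with a median of 0.23 where the median of all tested genes was 0.01. Of 17 tested genes of the wider machinery of H3K9 methylation, 0 passed higher and 1 lower, PPHLN1, which encodes the HUSH subunit periphilin and fell by 0.43 ± 0.13 (adjusted p = 0.00997).

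Genes reported elsewhere as repressed by G9a were looked up as a list of 22, of which 12 could be tested. None passed higher and 4 passed lower than the reference, where 7.26% of all tested genes passed higher and 8.28% lower. The list's median was -0.11. The 4 were MAP1LC3B and SQSTM1, which encode the autophagosome protein LC3B and the autophagy receptor p62, and the fetal globin genes HBG1 and HBG2. MAP1LC3B ran from 49.0 to 91.1 CPM (median 67.9) in the inhibitor wells and from 56.8 to 101 CPM (median 92.9) in the reference, and fell by 0.37 ± 0.10 (edgeR adjusted p = 0.00478). SQSTM1 ran from 50.2 to 77.1 CPM (median 69.1) against 67.3 to 103 CPM (median 88.1), and fell by 0.36 ± 0.11 (adjusted p = 0.0106). Both genes overlapped between the groups, and both also fell in first-column DMSO against other DMSO, MAP1LC3B by 0.30 and SQSTM1 by 0.32. Relative to columns 2 and 3 the differences were -0.20 ± 0.11 for MAP1LC3B and -0.04 ± 0.11 for SQSTM1.

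Germline and imprinted genes of the same list were too low to test. DAZL, DDX4 and DPPA3 (germ cell genes), CDH1 (E-cadherin) and RUNX3 had 0 counts in all 8 inhibitor wells and in all 16 reference wells. A count of 0 among 4140898 human counts allows a level of up to 0.724 CPM over the 8 wells, counting error only. MAGEA4, a cancer-testis gene, had 3 counts in the inhibitor wells and 9 in the reference, H19 had 7 and 18, and PEG3 had 1 and 0.

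The globin genes gave small differences of both signs. HBG1 was at 7393 and 7684 CPM with BIX_01294, 6573 and 7061 CPM with UNC0631, 7763 and 7381 CPM with A366, and 7047 and 6556 CPM with BRD4770. The reference held 7541 to 8589 CPM of HBG1 (median 8046), so 2 inhibitor wells lay inside its range and 6 below it. HBG1 fell by 0.16 ± 0.05 (edgeR adjusted p = 0.0083) and HBG2 by 0.13 ± 0.05 (adjusted p = 0.0364). HBZ, the embryonic ζ-globin, ran from 786.5 to 965 CPM (median 862) against 701 to 844 CPM (median 783) and rose by 0.15 ± 0.05 (adjusted p = 0.0496), and HBE1, the embryonic ε-globin, differed by -0.10 ± 0.06 (adjusted p = 0.293). Against DMSO the HBG1 difference was 0.04 ± 0.04 and HBZ rose by 0.23 ± 0.05 (adjusted p = 0.000445). The differences from columns 2 and 3 were -0.05 ± 0.04 for HBG1 and 0.08 ± 0.05 for HBZ (adjusted p = 0.919).

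The adult α-globin genes differed more. HBA1 was at 858 and 961 CPM with BIX_01294, 789 and 836 CPM with UNC0631, 956.5 and 908 CPM with A366, and 876 and 803 CPM with BRD4770. All 8 lay below the reference range of 1130 to 1350 CPM and inside the 746.5 to 998 CPM of columns 2 and 3. HBA1 fell by 0.51 ± 0.07 (edgeR adjusted p = 6e-09) and HBA2 by 0.47 ± 0.07 (adjusted p = 1.63e-07) against the reference. First-column DMSO wells held 749 to 836 CPM of HBA1 and other DMSO wells 1080 to 1376 CPM, and against columns 2 and 3 the HBA1 difference was 0.02 ± 0.06. Over the 9 tested globin genes, 2 passed higher and 4 lower than the reference, and 0 passed against columns 2 and 3, where all 9 intervals of the difference held 0 with a median half-width of 0.13. HBA1 and HBA2, and likewise HBG1 and HBG2, are near-identical copies whose reads can be split between them.

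GATA1, the main erythroid transcription factor, separated the inhibitor wells from the vehicle. It was at 508 and 578 CPM with BIX_01294, 623 and 517 CPM with UNC0631, 447 and 591 CPM with A366, and 510.5 and 565 CPM with BRD4770. The 24 DMSO wells held 141 to 345 CPM of GATA1 (median 255) and overlapped none of the 8, while the reference held 328 to 464 CPM (median 397) and overlapped 1, that of A366 on plate 1. GATA1 rose by 1.16 ± 0.07 (edgeR adjusted p = 1.09e-35) against DMSO and by 0.45 ± 0.07 (adjusted p = 1.43e-07) against the reference. It also rose by 0.82 ± 0.08 (adjusted p = 5.24e-16) against first-column DMSO alone. The reference compounds were themselves above DMSO, with a DMSO minus reference value of -0.71 ± 0.05 for GATA1, and against columns 2 and 3 the GATA1 difference was 0.19 ± 0.07 (adjusted p = 0.643).

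Other erythroid regulators also depended on the comparison group. Of 14 erythroid factors tested, 10 passed higher and 0 lower against DMSO, where 7.36% of all tested genes passed higher and 8.04% lower, with a list median of 0.65, while 2 passed higher and 2 lower against the reference, with a median of 0.14. KLF1, an activator of adult globin genes, rose by 0.67 ± 0.07 (edgeR adjusted p = 4.27e-14) against DMSO and fell by 0.28 ± 0.07 (adjusted p = 0.0014) against the reference. TAL1, a partner of GATA1, rose in both, by 0.62 ± 0.15 and 0.73 ± 0.16. MYB, a factor of immature progenitors, fell by 0.44 ± 0.13 (adjusted p = 0.00995) against the reference and differed by -0.11 ± 0.13 against DMSO. LMO2, which bridges TAL1 and GATA1, had the largest rise against DMSO among the named genes, 1.60 ± 0.14 (adjusted p = 1.57e-19). The LMO2 difference from the reference was 0.31 ± 0.12 (adjusted p = 0.0759), and DMSO lay below the reference by 1.29 on the log2 scale. MYC rose by 0.59 ± 0.08 (adjusted p = 3.51e-09) against DMSO and differed by -0.04 ± 0.08 (adjusted p = 0.819) from the reference.

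Of 26 erythroid effector genes, 9 passed higher (34.6%, against 7.26% of all tested genes) and 1 lower (3.85%, against 8.28%) in the comparison with the reference. SLC25A37, the mitochondrial iron importer mitoferrin, rose by 0.59 ± 0.11 (edgeR adjusted p = 1.83e-05), PPOX, an enzyme of haem synthesis, by 0.80 ± 0.17 (adjusted p = 0.000183), and TFRC, the transferrin receptor, by 0.47 ± 0.09 (adjusted p = 6.11e-05). The 11 compounds of columns 2 and 3 also gave 9 higher and 1 lower, and first-column DMSO against other DMSO gave 11 higher and 2 lower. Against columns 2 and 3 the differences were 0.15 ± 0.10 for SLC25A37, 0.22 ± 0.16 for PPOX and -0.06 ± 0.09 for TFRC. With counts scaled by the ERCC RNAs, the median of all genes against the reference was -0.13 and the effectors' split was 3 higher and 1 lower.

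The pooled comparison with DMSO gave 1588 genes (15.4%), 759 higher and 829 lower. With ERCC scaling it gave 573, 438 higher and 135 lower. DMSO itself differed from the reference in 973 genes (9.44%), 518 higher and 455 lower, and both comparisons of the inhibitors share wells with it. Restricting the vehicle to the first column gave 257 genes (2.49%), 172 higher and 85 lower, and restricting it to the other columns gave 2395. Against first-column DMSO alone, the single compounds gave 48 (0.465%) for BIX_01294, 51 (0.495%) for UNC0631, 42 (0.407%) for A366 and 24 (0.233%) for BRD4770.

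Cells engage stress pathways when translation, membranes or protein folding are disturbed. Among 22 tested genes of the ATF4 and integrated stress response, 4 passed higher than the reference (18.2%, against 7.26% of all tested genes) and 1 lower (4.55%, against 8.28%), with a median of 0.08. DDIT3, which encodes the stress factor CHOP, ran from 42.9 to 72.3 CPM (median 51.4) against 26.4 to 60.05 CPM (median 36.4) and rose by 0.49 ± 0.12 (edgeR adjusted p = 0.00226). ATF4 itself rose by 0.33 ± 0.11 (adjusted p = 0.0195), SLC3A2, an amino acid transporter chain, rose by 0.46 ± 0.10, and TRIB3 fell by 0.39 ± 0.12. Columns 2 and 3 gave 7 higher and 1 lower on the same list, and the inhibitors differed from them by 0.04 ± 0.12 in DDIT3 and -0.01 ± 0.10 in ATF4. With ERCC scaling the split was 0 higher and 2 lower.

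PHGDH, the first enzyme of serine synthesis, differed by -0.22 ± 0.20 (edgeR adjusted p = 0.502) and ASNS, the asparagine synthetase, by -0.34 ± 0.14 (adjusted p = 0.0892). Against the same 7.26% higher and 8.28% lower over all genes, the next lists had the following counts. Of 9 tested genes of serine and glycine synthesis, 0 passed higher and 1 lower. Of 25 genes of cholesterol synthesis, 2 passed in each direction. HMGCS1, an enzyme of that pathway, differed by -0.03 ± 0.15 and INSIG1, which retains its activator in the endoplasmic reticulum, by -0.16 ± 0.09 (adjusted p = 0.242). CDKN1A, the p21 gene, gave 0.59 ± 0.52 (adjusted p = 0.482). None of 5 genes for inhibitors of cyclin-dependent kinases and none of 9 interferon response genes passed, and 0 of 22 autophagy genes passed higher and 2 lower.

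Ribosomal protein genes were the list with the most genes lower. Of 83 tested, 3 passed higher (3.61%) and 42 lower (50.6%) against the reference, where 7.26% and 8.28% of all tested genes did, with a median of -0.18. RPL39 fell by 0.56 ± 0.09 (edgeR adjusted p = 9.84e-07) and RPLP0 by 0.44 ± 0.07 (adjusted p = 1.21e-06), while RPS6 rose by 0.28 ± 0.04 (adjusted p = 2.18e-08). The compounds of columns 2 and 3 gave 7 higher and 43 lower, and first-column DMSO against other DMSO gave 3 higher and 68 lower. Against columns 2 and 3, 0 of the 83 passed, and RPL39 differed by -0.06 ± 0.09. Under the other scalings of the libraries the split was 7 higher and 36 lower, 8 and 32, and 0 and 32, so that RPS6 and the few others higher depend on the scaling. Histone genes gave 0 higher and 5 lower (20.8%) of 24, among them the linker histone gene H1-2, which fell by 0.37 ± 0.06 (adjusted p = 1.63e-07) and differed by -0.03 ± 0.05 from columns 2 and 3. Heat shock chaperone genes gave 0 higher and 4 lower (22.2%) of 18, among them HSP90AB1, which fell by 0.35 ± 0.06 (adjusted p = 5.82e-06). The HSP90AB1 median was 602 CPM in the inhibitor wells and 605 CPM in columns 2 and 3. First-column DMSO against other DMSO gave 0 higher and 3 lower (16.7%) of the same 18. Genes with a ZNF symbol, the zinc finger factors, gave 7 higher (4.32%) and 0 lower of 162, both below the shares over all genes. Their median against the reference was nevertheless above that of all genes, 0.17 and 0.04 with DESeq2-type size factors and 0.01 and -0.13 with ERCC scaling. Their intervals were also wider, with a median half-width of 0.56 against columns 2 and 3, where that of all genes was 0.38.

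Taken 1 at a time against the reference, each compound, with 2 wells, gave fewer genes. BIX_01294 gave 219 genes (2.12%), 144 higher and 75 lower. UNC0631 gave 109 (1.06%), 71 higher and 38 lower, and 1 higher and 81 lower with ERCC scaling. A366 gave 137 (1.33%), 77 higher and 60 lower. BRD4770 gave 226 (2.19%), 105 higher and 121 lower, and 162 higher and 104 lower with library size alone. Library size alone gave 163 higher and 56 lower for A366, and ERCC scaling left 61 higher and 0 lower for BIX_01294, 4 and 0 for A366 and 0 for BRD4770. By the same test the reference compounds, each against the other 7, gave 0 genes for Ofloxacin, SGC_0946, EPZ015666 and EED226 (0.0%), 1 for EtOH (0.0097%), 2 for GSK591 (0.0194%), 6 for GSK126 (0.0582%) and 18 for Pinometostat (0.175%), with 373 to 529 at an unadjusted p under 0.05. With either plate left out the count was 0 for each of the 4. Against DMSO the counts were 238 for BIX_01294 (2.31%), 143 for UNC0631 (1.39%), 184 for A366 (1.78%) and 204 for BRD4770 (1.98%).

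HNRNPH1, which encodes a splicing factor, led the genes higher with BIX_01294. It was at 1097 and 1067 CPM with BIX_01294, 340 and 268 CPM with UNC0631, 766 and 743 CPM with A366, and 783 and 799 CPM with BRD4770. The reference ran from 179 to 901 CPM (median 332), so both BIX_01294 wells lay above it. The wells of columns 2 and 3 ran from 147 to 1027 CPM (median 441), and the first-column DMSO wells from 852 to 1273 CPM. The other DMSO wells ran from 133 to 799.7 CPM, and their HNRNPH1 level went with the place on the plate: on plates 1 and 2 it was 133 and 151 CPM in column 8, 799.7 and 787 CPM in column 9, 261 and 274 CPM in column 10, and 142 and 159 CPM in column 11. Duplicates share well number and barcode, so the 2 plates are not independent evidence for a gene that repeats by well in the vehicle, and compound and well cannot be told apart for HNRNPH1. HNRNPH1 rose by 1.59 ± 0.35 (edgeR adjusted p = 0.00332) with BIX_01294 against the reference, and it was also higher by 2.36 ± 0.50 (adjusted p = 0.0074) in GSK503 of column 3 than in GSK503 of column 11.

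CDC42SE1, a small effector of the GTPase CDC42, was the only gene to pass for BIX_01294 against the compounds of columns 2 and 3 (0.0097% of the genes tested), with an adjusted p of 0.0319, and it is named after its values were seen. It was at 172 and 158.5 CPM with BIX_01294, 65.0 and 65.9 CPM with UNC0631, 106 and 89.8 CPM with A366, and 105 and 105 CPM with BRD4770. Its range was 33.5 to 166 CPM in the reference and 42.6 to 161 CPM in columns 2 and 3, so the BIX_01294 wells overlapped both. With BIX_01294 CDC42SE1 rose by 1.11 ± 0.23 (edgeR adjusted p = 0.0038) against the reference, and in first-column DMSO it rose by 1.12 ± 0.14 against other DMSO. CDC42SE1 also repeated by place in the vehicle, at 104 and 102 CPM on plates 1 and 2 in column 9, 51.2 and 46.5 CPM in column 10 and 51.2 and 42.1 CPM in column 8, so its p too treats as independent 2 wells that share well and barcode. Against columns 2 and 3, BIX_01294 had 603 genes at an unadjusted p under 0.05, UNC0631 had 504, A366 had 452 and BRD4770 had 507, and 0 genes passed the adjusted threshold for the last 3 compounds (0.0%).

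The 3 EZH2 inhibitors of column 3 gave a second position-matched set of 6 wells, which differed from the reference in 827 genes (8.02%) in edgeR. Against them BIX_01294 gave 5 genes (0.0485%), with HNRNPH1, CDC42SE1 and the splicing factor gene TRA2A higher. The mitochondrial ribosomal RNA MT-RNR2 and ENSG00000269028, a gene line with no matched symbol, were lower. The other compounds gave 0, and the 4 pooled gave 1 (0.0097%), ENSG00000269028 lower with an adjusted p of 0.00756. TRA2A was at 120 and 132 CPM with BIX_01294, 54.5 and 44.6 CPM with UNC0631, 91.1 and 88.2 CPM with A366, and 72.7 and 119 CPM with BRD4770. These genes too were named after their values were seen.

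**Figure D5:**
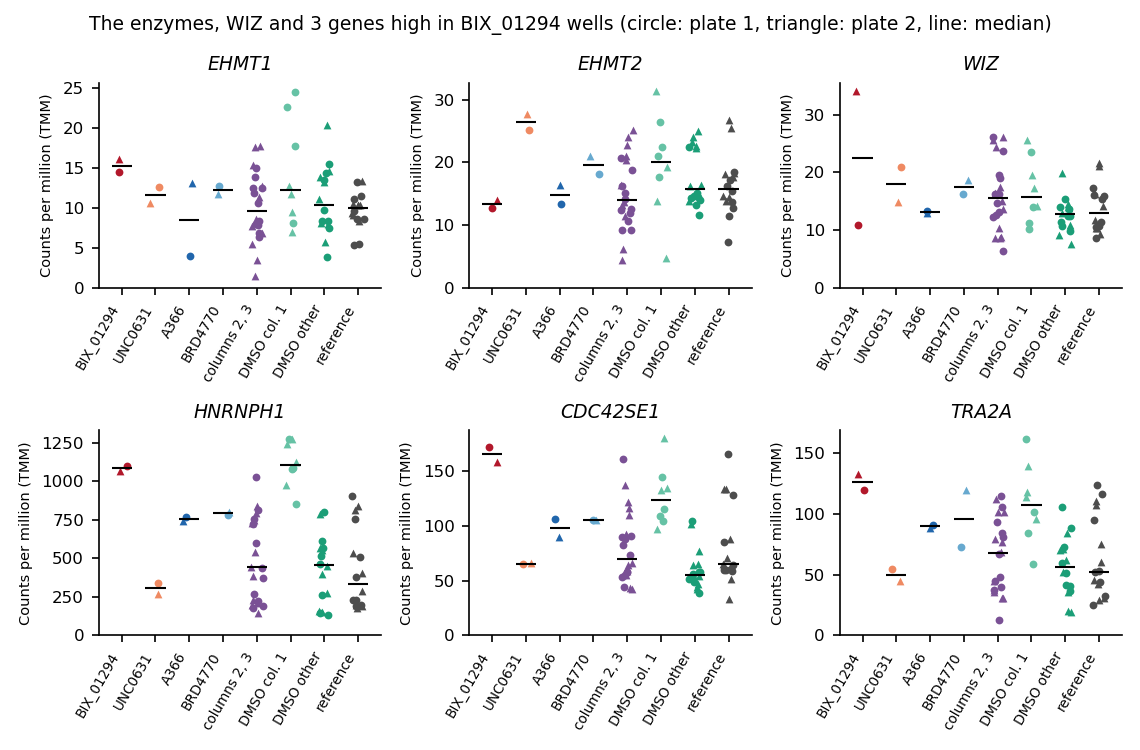
Level of EHMT1, EHMT2, WIZ, HNRNPH1, CDC42SE1 and TRA2A in every well (y axis, TMM-scaled CPM) by group of wells (x axis), circles for plate 1, triangles for plate 2 and lines for medians. The BIX_01294 wells are the highest inhibitor wells for HNRNPH1 (1097 and 1067) and the UNC0631 wells the lowest (340 and 268), and the BIX_01294 wells lie within the range of first-column DMSO (852 to 1273).

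Other genes named for BIX_01294 were C1orf56, PABPC1L, the pseudogene PI4KAP2 and TUBGCP6, higher, and SERBP1P5, BANF1P3, CENPU, CRIPT and PDLIM1, lower. C1orf56, at 107 and 92.3 CPM against 15.3 to 105 CPM in the reference, rose by 1.37 ± 0.35 (edgeR adjusted p = 0.0254). CENPU, a centromere protein, fell by 1.17 ± 0.33 (adjusted p = 0.0171) with BIX_01294, while A366 gave -0.02 ± 0.21 for it. For UNC0631, SLF2, which brings the SMC5/6 complex to DNA damage, rose by 1.41 ± 0.33 (adjusted p = 0.0242), with wells at 50.3 and 23.4 CPM against 7.04 to 30.0 CPM in the reference. TELO2, a factor for the assembly of large kinases, rose by 1.10 ± 0.27 (adjusted p = 0.0325) with UNC0631. RBBP7, a histone-binding subunit of PRC2 and NuRD, fell by 1.141 ± 0.31 (adjusted p = 0.0194) with UNC0631 and by 0.81 ± 0.24 (adjusted p = 0.0419) with A366, and BRD4770 gave -0.12 ± 0.23.

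For A366, the noncoding LINC01001 rose by 1.21 ± 0.31 (edgeR adjusted p = 0.0385), with wells at 14.7 and 39.2 CPM against 5.01 to 15.3 CPM in the reference, and UCKL1, a uridine kinase-like enzyme, rose by 1.12 ± 0.24 (adjusted p = 0.0105). VTI1B, a SNARE protein, fell by 1.13 ± 0.36 (adjusted p = 0.0473) with A366. For BRD4770, DGCR8, the partner of Drosha in microRNA processing, rose by 1.20 ± 0.23 (adjusted p = 0.00743), and GPAT4, an acyltransferase of glycerolipid synthesis, rose by 1.21 ± 0.30 (adjusted p = 0.0277). BIX_01294 gave 1.01 ± 0.24 for DGCR8 (adjusted p = 0.0145) and -0.43 ± 0.48 for GPAT4 (adjusted p = 0.718). TRAM1, a protein of the endoplasmic reticulum translocon, fell by 1.20 ± 0.34 (adjusted p = 0.0158) with BRD4770. No gene in this paragraph passed against the compounds of columns 2 and 3.

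The 4 inhibitors were then compared with one another, in 6 pairs at the single exposure of 6 h. Because no dose is given, dose and structure cannot be told apart. Each compound also had its own well number, with BIX_01294 and A366 in plate column 3 and UNC0631 and BRD4770 in column 2. Compound and place on the plate therefore cannot be told apart in the pairs either. With p-values adjusted over all genes and pairs together, 0 genes (0.0%) passed in any pair in edgeR, and DESeq2 and limma-voom also gave 0. The smallest adjusted p was 0.643. At an unadjusted p under 0.05, edgeR gave 517 genes between BIX_01294 and UNC0631, 439 between BIX_01294 and A366, 449 between BIX_01294 and BRD4770, 512 between UNC0631 and A366, 424 between UNC0631 and BRD4770, and 438 between A366 and BRD4770. The median 95% half-width of a difference was 0.89 to 0.98 over the pairs. These intervals are per gene, with no adjustment for the number of genes and pairs.

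The 3 genes named per direction for each pair, among those with a mean log2 CPM of 4 or more, did not pass. The largest of these differences was in the pseudogene MMADHCP2, lower with BIX_01294 than with BRD4770 by a log2 difference of -2.50 (95% interval -4.26 to -0.74, edgeR adjusted p over pairs = 1). MKLN1, which encodes muskelin, was lower with BIX_01294 than with UNC0631 by a log2 difference of -2.31 (95% interval -3.72 to -0.89, edgeR adjusted p over pairs = 0.892), with 5.44 and 4.01 CPM against 21.0 and 27.6 CPM. QRICH1, a glutamine-rich factor, was higher with A366 than with BRD4770 by 2.43 (0.87 to 3.99, adjusted p = 0.843). HNRNPH1 was higher with BIX_01294 than with UNC0631 by 1.83 (0.80 to 2.87, adjusted p = 1). Of the 18 tested genes looked up in every comparison, which include EHMT1, EHMT2, WIZ, MYC and the globins, the 95% interval of the difference held 0 for all 18 between BIX_01294 and UNC0631 and between UNC0631 and BRD4770. It held 0 for 17 between BIX_01294 and A366 (all but INSIG1), between BIX_01294 and BRD4770 and between A366 and BRD4770 (all but HBE1), and for 15 between UNC0631 and A366 (all but INSIG1, MYC and PHGDH).

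The quinazolines BIX_01294 and UNC0631 were also set, as a class, against A366 and BRD4770. Here 0 genes (0.0%) passed in edgeR, 410 had an unadjusted p under 0.05, and the median 95% half-width was 0.66. DCAKD, a kinase-like protein with a dephospho-CoA kinase domain, was higher in the class by 1.12 (0.42 to 1.81) and SMIM19, a small membrane protein, lower by -1.16 (-2.0 to -0.31), both with an adjusted p of 1. INSIG1, a sensor of sterols, stood at 102 and 118 CPM with BIX_01294, 101 and 108 CPM with UNC0631, 68.3 and 80.0 CPM with A366, and 90.8 and 84.1 CPM with BRD4770. Its 4 quinazoline wells lay above the other 4 and inside the reference range of 69.2 to 148 CPM, and it was the only 1 of the 18 genes whose interval of the class difference did not hold 0. A p that misses the threshold does not show that the compounds act alike.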

How the data were processed

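RNA of K562 cells in 192 wells on 2 plates was measured by MAC-seq, and the 2 deposited tables, 1 per plate, give counts per gene and well. The deposited values are taken as estimated counts, as the authors made them from reads mapped to genes. All values of 57905 gene lines and 92 ERCC lines are whole, and 6 summary lines that name no gene were left out. Reads per UMI (unique molecular identifier) ran from 1.63 to 3.53 over all 192 wells. That value is a ratio, so its fractions do not show that the gene values are fractional or estimated. Per the submitters' processing notes, the tools were cutadapt 2.1, bcl2fastq 2.17.1.14, R 4.0.2 and FastQC 0.11.6, and the build was GRCh37 (hg19). The sources used here do not name the aligner or the counter. Whether the counts are reads or molecules was not tested, so copies made by amplification may count more than once. Compound names come from the deposited annotation of wells, and plate columns were read from the well number. Symbols were matched for 51996 gene lines, and gene types for 10128 of the 10312 genes tested (98.2%). No coordinates are given, because the annotation used for gene types follows a different build.

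Genes were kept with filterByExpr, scaled with TMM factors and tested in edgeR 4.0.16 (R 4.3.3) by the quasi-likelihood test, with 1 term per compound and a plate term fitted to all wells, so that compounds with 2 wells share the estimate of spread. Plate is the replicate block, because each compound has 1 well per plate. P-values were adjusted by Benjamini-Hochberg within a comparison, and over the 6 pairs together for the pairs, with a threshold of 0.05. SE and 95% intervals are per gene and are not adjusted. A faster solver of the same likelihood was checked against edgeR on 300 genes (largest log2 difference 3.9e-07, 48 calls by each) and tested on simulated data. The chi-square between duplicate wells, per degree of freedom, was 1.15 (BIX_01294), 1.26 (UNC0631), 2.25 (A366) and 1.52 (BRD4770), and no pair was identical. Alternatives used DESeq2 1.42.0, limma 3.58.1 (voom) and other scalings, filters and comparison wells.

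Named for the pooled comparison with the reference are, per direction, the 10 largest changes among genes past the threshold that have a mean log2 CPM of 4 or more and 1 sign over all 8 wells. For a single compound these are the top 5 per direction, for pairs and the class the top 3, and for each list the 2 to 4 members with the smallest p. EHMT1, EHMT2, WIZ, MYC, HBG1, HBG2, HBZ, HBE1, CDKN1A, HMGCS1, INSIG1, ATF4, DDIT3, CHAC1, ASNS, PHGDH, MAP1LC3B and SQSTM1 were looked up everywhere, and 1 further gene is not reported here. CHAC1 was too low to test, with 7 counts in the inhibitor wells and 10 in the reference. The members and the gene lists were chosen with earlier results of these data known. The count of columns of other samples in the tables was 0.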

Additional observations from a re-analysis of the deposited data

Results flagged for a closer look

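Over the 8 inhibitor wells, 40 quantities were checked for a well far from the others, and 3 stood out. Chance alone gives about 1 in 20. EHMT1 was lowest with A366 on plate 1, at 4.019 CPM, where the next well was at 10.63 CPM and the highest at 16.05 CPM. GTPBP2 was highest with BRD4770 on plate 1, at 56.32 CPM, where the next well was at 37.56 CPM and the lowest at 23.07 CPM. WIZ was highest with BIX_01294 on plate 2, at 34.1 CPM, where the next well was at 20.97 CPM and the lowest at 10.88 CPM. The duplicate on the other plate lay among the remaining wells for EHMT1 and GTPBP2, and for WIZ it was the lowest well.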

How the results depend on the processing

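Counts are genes past the threshold. For the 4 inhibitors against the reference (1603, 749 higher and 854 lower), DESeq2-type size factors gave 1587 (880 and 707), library size alone 1657 (1078 and 579), ERCC scaling 1201 (239 and 962), no filter 1221 (424 and 797), no replicate block 1388, only the wells compared 1387, DESeq2 1354 and voom 1658. Leaving out each inhibitor gave 1225 to 1339 and each reference compound 1453 to 1702. Leaving out a plate gave 10 to 189 (10 without plate 1), where each lone well is taken to vary like the other groups. Chosen after seeing the data, the 2 shallowest reference compounds as reference gave 370, the EZH2 inhibitors of column 3 gave 1, and the compounds of columns 2 and 3 gave 0. Against DMSO (1588), ERCC scaling gave 573 (438 and 135), leaving out a plate 69 to 266, DMSO without the first column 2395 and first-column DMSO alone 257, and the fit with no replicate block gave 1345.

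For BIX_01294, UNC0631, A366 and BRD4770 against the reference, in that order, the fit with no replicate block gave 108, 47, 41 and 75, no filter 96, 28, 32 and 114, only the wells compared 22, 6, 25 and 1, the shallowest reference 58, 4, 43 and 7, the EZH2 inhibitors of column 3 5, 0, 0 and 0, and columns 2 and 3 1, 0, 0 and 0. ERCC scaling gave 61 for BIX_01294, 82 (1 higher and 81 lower) for UNC0631, 4 for A366 and 0 for BRD4770, and DESeq2 gave 111, 85, 83 and 139 in that order. Voom gave 139 higher and 70 lower for BRD4770. Library size alone gave 186 for UNC0631 and 219 for A366. Leaving out either plate gave 0 for each compound, with a range of 0 to 0. Against DMSO without the first column the counts were 714, 621, 654 and 774, and against first-column DMSO alone 48, 51, 42 and 24. The pairs and the class gave 0 under every alternative run. The cause of these changes was not tested.

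Of the values of named genes under the alternatives listed at the start, 1146 kept their side of the threshold, 299 lost it and 3 gained it. A change of sign was counted only where the main or the alternative fit passed, and 0 were counted. Changes of sign between fits that both missed the threshold are among the 1146. Under the added ones the numbers were 63, 186, 1 and 2. The 2 were ATF4, at -0.0057 against columns 2 and 3, and BANF1P3, at 0.0536 against the EZH2 inhibitors of column 3. Depth limits the genes with few counts most, since the inhibitor wells held a median of 501561 counts, so that 1 count was worth about 2 CPM.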

Other observations

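Genes outside the lists showed how far the vehicle itself stood apart. Besides LMO2, the 5 named genes with the largest rises against DMSO were CBFA2T3 (the corepressor ETO2), GABRE (a GABA receptor subunit), KCNN4 (a potassium channel), ARHGAP22 (a GTPase-activating protein) and ADAMTS14 (a secreted protease). They rose by 1.44 ± 0.17, 1.41 ± 0.16, 1.39 ± 0.20, 1.26 ± 0.20 and 1.20 ± 0.20 on the log2 scale. DMSO lay below the reference compounds in all 5, with DMSO minus reference values of -1.22, -0.83, -0.76, -1.13 and -0.88. Against the reference, GABRE rose by 0.58 ± 0.15 (edgeR adjusted p = 0.00303) and KCNN4 by 0.63 ± 0.19 (adjusted p = 0.0116). CBFA2T3, ARHGAP22 and ADAMTS14 differed by 0.22, 0.13 and 0.32 and did not pass. The compounds of columns 2 and 3 also rose against the reference, by 0.50 ± 0.11 for GABRE and 0.48 ± 0.14 for KCNN4. The inhibitors differed from those compounds by 0.08 ± 0.14 for GABRE (edgeR adjusted p = 0.982) and 0.15 ± 0.18 for KCNN4 (adjusted p = 0.949).

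Further gene lists were counted for the 4 inhibitors against the reference, where 7.26% of all tested genes passed higher and 8.28% lower. Immediate early genes had 2 higher and 0 lower of 28, mitotic genes 1 and 2 of 24, and lysosome genes 0 and 1 of 33. Genes of the unfolded protein response had 0 and 1 of 18, and targets of the oxidative stress factor NRF2 0 and 3 of 14 (21.4% lower). Mitochondrially encoded mRNAs had 0 and 1 of 13. First-column DMSO against other DMSO gave 1 higher and 3 lower of the NRF2 targets. For the mitochondrial mRNAs it gave 0 and 10. Against columns 2 and 3, the 95% interval of the difference held 0 for all 13 NRF2 targets with an interval. It held 0 for 6 of 13 mitochondrial mRNAs (median half-width 0.11) and 11 of 14 erythroid factors, while 0 genes passed there. The cause was not tested.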
